A study of Mus musculus with 8 samples.

Results

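Imprinted genes were followed through 8 deposited tables of changed DNA methylation in mouse colon organoids. The 50 genes are well-known imprinted genes, named by symbol and grouped into 21 loci. A RefSeq span was found for 49 of them, all except Zfp264. Every listed 200 bp tile that overlapped a gene's span on GRCm38, widened by 2 kb on either side, was assigned to it and counted once per locus. This gave 240 tile values at 164 tile positions, of 75041 values at 53375 positions in the whole series.

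The organoids were grown from the proximal colon of male mice about 40 days old that carried a heterozygous Cre-activable BrafV600E allele (Braf+/LSL), which encodes an always active BRAF kinase. All 8 libraries share this allele and a lentivirus, which carried Cre or was the empty backbone (EV). They fall into 4 groups of 2, each with organoid line 1 and organoid line 3. In the first group Cre had switched on BrafV600E, and the organoids, at 5 months of culture, had been selected for growth in Base medium, which lacks the niche factors of full medium. The second group was EV in full medium at 5 months. The third was EV in full medium at 2 months, and the fourth EV in full medium at 12 months (line 1) or 14 months (line 3). All groups are labelled with a last culture of 3 weeks. In other label fields the 14-month library carries 2 months and the line 1 BrafV600E library carries line 3, and the titles were followed.

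Each table compares 1 library with 1 library of the same line by reduced representation bisulfite sequencing (RRBS), which reads CpG-rich fragments. Every listed tile has a difference of 20 percentage points or more and a q-value no higher than 0.01, and this q-value describes 2 libraries and the lines are the only replicates. With 2 lines no test across samples was made, and an unlisted tile may be unchanged or unread. The tables used here give neither read depth nor starting level. Oncogene and medium changed together in the BrafV600E comparison and cannot be told apart. Nor can a change within cells be told apart from a change in which cells were present. Organoid identity could not be checked against expressed markers in methylation tables.

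An imprinted gene is expressed mainly from the copy inherited from the mother or from the father. The choice is set by a germline mark, DNA methylation laid down in the egg or sperm that normally stays on that parental copy in every tissue, and many genes of a locus also acquire secondary methylation at their own promoters after fertilisation. The zinc finger protein ZFP57 binds methylated TGCCGC and protects germline marks from erasure. Many imprinted genes control growth, and loss of imprinting at H19 and Igf2 is well known in colorectal cancer.

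Gains and losses were found at most imprinted loci, and their balance was not the same in the 4 within-line comparisons. In the authors' deposited tables, line 1 with BrafV600E had 39 imprinted tiles that gained and 14 that lost, or 73.6% gains (exact Clopper-Pearson 95% interval 59.7 to 84.7), while line 3 had 23 and 48, or 32.4% (21.8 to 44.5). Over all listed tiles the shares of gains were 67.5% and 40.4%, so the imprinted tiles had the majority direction of their table. With long culture, line 1 had 15 gains and 15 losses (50%, interval 31.3 to 68.7) and line 3 had 77 and 9 (89.5%, 81.1 to 95.1) in the authors' deposited tables. Over all listed tiles these shares were 40.9% and 71.9%. In line 3 after long culture the interval of the imprinted share lay above the share of all tiles. These intervals cover the count of tiles alone, and neighbouring tiles are not independent.

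At least 1 tile was listed for 20 of 21 loci and 42 of 49 genes. Nap1l5-Herc3 was the locus without one, and Copg2, Ndn, Ube3a, Kcnq1ot1 and Mirg were the other genes. With BrafV600E, 19 of 49 genes had a gain and 10 a loss in line 1, against 17.8% and 10.5% of 21887 protein-coding genes with the same window, and 19 and 24 of 49 in line 3, against 20.9% and 20.4%. After long culture 8 of 49 had a gain and 15 a loss in line 1 (8.55% and 10.9% of protein-coding genes), and 26 and 9 of 49 in line 3 (20.3% and 12.2%). With BrafV600E, 22 of 49 genes (44.9%) had a tile in both lines, against 18.0% of protein-coding genes, and with long culture 14 of 49 (28.6%) against 12.3%. The members are longer, with a median span of 39.2 kb against 17.2 kb, and genes that overlap, such as Peg3 and Usp29, share tiles. Around the start alone, where windows are of equal length, 16 of 39 members (41.0%) had a gain within 2 kb in line 3 after long culture, against 12.3% of 17492 protein-coding genes. The corresponding gains were 10 of 39 (25.6%) against 10.0% in line 1 and 8 of 39 (20.5%) against 10.9% in line 3 with BrafV600E, and 3 of 39 (7.69%) against 5.62% in line 1 after long culture. Losses near the start were found for 3 of 39 members (7.69%) against 4.08% and 10 of 39 (25.6%) against 7.78% with BrafV600E in lines 1 and 3, and for 7 of 39 (17.9%) against 4.56% and 2 of 39 (5.13%) against 4.04% after long culture. Promoters of members had a median of 14 CpGs in 300 bases, against 7 over all promoters of the RefSeq table outside chromosome 18, and RRBS reads CpG-rich sequence more often. The part of CpG content in these shares was not tested.

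**Figure D1:**
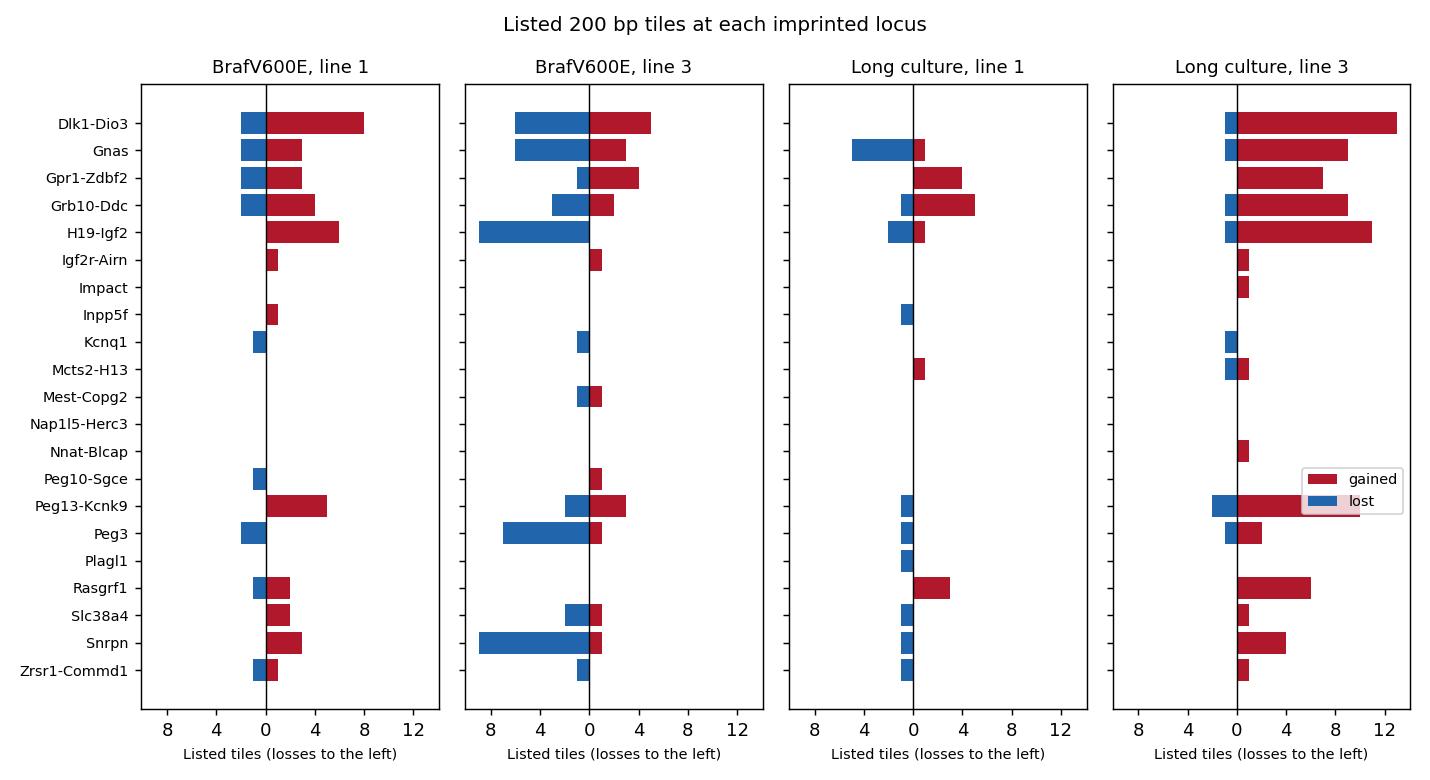
Listed tiles per imprinted locus in each within-line comparison; bars to the right count tiles that gained methylation and bars to the left tiles that lost it, from 1 library against 1 library per panel. Dlk1-Dio3 reached 13 gains in line 3 after long culture, and H19-Igf2 and Snrpn each had 9 losses in line 3 with BrafV600E.

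The promoters that the results below turn on are shown for GRCm38.p6 as RefSeq gives them, 250 bases before to 50 bases after the annotated start, 5′ to 3′ on the gene's strand, with each TGCCGC or its reverse complement GCGGCA in capitals. Grb10, Zdbf2 and Dio3 are shown because tiles overlapping these promoters gained in more than a single comparison. Mcts2, Snurf, Meg3 and Peg3 are shown because tiles overlapping these promoters were listed and these starts are known to carry a germline or secondary mark. An overlapping tile need not cover the start itself. The positions are chr11:12037371-12037670 (minus strand), chr1:63273019-63273318 (plus), chr12:110278980-110279279 (plus), chr2:152686898-152687197 (plus), chr7:60005150-60005449 (minus), chr12:109540746-109541045 (plus) and chr7:6730370-6730669 (minus), in the same order.
Grb10: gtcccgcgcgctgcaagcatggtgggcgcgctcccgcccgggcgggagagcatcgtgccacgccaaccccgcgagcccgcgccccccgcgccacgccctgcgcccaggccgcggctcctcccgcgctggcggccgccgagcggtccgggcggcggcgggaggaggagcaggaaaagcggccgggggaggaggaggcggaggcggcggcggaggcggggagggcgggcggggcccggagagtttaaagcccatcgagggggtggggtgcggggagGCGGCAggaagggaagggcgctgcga
Zdbf2, internal start: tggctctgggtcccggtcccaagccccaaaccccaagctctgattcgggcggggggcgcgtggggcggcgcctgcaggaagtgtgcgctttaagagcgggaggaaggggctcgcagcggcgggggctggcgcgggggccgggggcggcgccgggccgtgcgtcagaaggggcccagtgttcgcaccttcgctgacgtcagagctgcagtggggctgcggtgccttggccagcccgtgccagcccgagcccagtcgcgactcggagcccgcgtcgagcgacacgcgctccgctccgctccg
Dio3: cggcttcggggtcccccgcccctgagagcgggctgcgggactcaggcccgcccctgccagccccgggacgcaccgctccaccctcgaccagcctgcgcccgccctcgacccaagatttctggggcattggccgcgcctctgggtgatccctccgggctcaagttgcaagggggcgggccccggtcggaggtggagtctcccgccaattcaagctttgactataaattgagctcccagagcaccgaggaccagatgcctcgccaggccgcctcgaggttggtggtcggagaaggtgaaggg
Mcts2: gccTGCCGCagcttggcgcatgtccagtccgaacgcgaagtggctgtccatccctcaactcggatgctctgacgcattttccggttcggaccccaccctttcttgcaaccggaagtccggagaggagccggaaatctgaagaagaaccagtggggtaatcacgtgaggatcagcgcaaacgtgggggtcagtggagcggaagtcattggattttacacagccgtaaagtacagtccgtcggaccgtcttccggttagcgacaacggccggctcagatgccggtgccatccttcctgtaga
Snurf, also the Snrpn start used here: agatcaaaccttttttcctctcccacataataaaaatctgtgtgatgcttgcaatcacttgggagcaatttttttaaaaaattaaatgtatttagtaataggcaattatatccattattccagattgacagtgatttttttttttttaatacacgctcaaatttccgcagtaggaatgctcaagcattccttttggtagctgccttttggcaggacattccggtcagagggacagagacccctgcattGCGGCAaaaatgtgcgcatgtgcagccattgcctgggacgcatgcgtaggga
Meg3: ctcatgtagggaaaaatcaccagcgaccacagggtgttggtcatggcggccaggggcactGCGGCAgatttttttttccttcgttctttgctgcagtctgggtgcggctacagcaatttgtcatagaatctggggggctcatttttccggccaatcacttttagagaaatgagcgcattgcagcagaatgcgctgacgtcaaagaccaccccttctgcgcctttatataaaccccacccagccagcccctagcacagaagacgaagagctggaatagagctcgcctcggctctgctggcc
Peg3: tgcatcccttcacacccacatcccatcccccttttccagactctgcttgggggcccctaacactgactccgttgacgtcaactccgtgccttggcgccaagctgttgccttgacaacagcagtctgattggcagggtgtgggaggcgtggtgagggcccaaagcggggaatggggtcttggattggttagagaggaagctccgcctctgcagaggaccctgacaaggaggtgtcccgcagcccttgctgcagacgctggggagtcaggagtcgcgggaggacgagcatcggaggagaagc

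The Grb10, Zdbf2 and Dio3 promoters held 45, 38 and 25 CpGs, and those of Mcts2, Snurf, Meg3 and Peg3 held 25, 7, 13 and 13. The motif, searched on both strands, was found once in the Grb10, Mcts2, Snurf and Meg3 promoters and not in the other 3. It was present in 5 of 11 promoters of members with a germline mark at the start, in 14 of 57 member promoters and in 11.6% of 32851 promoters of the table. Promoters on chromosome 18 were left out of these counts. A match is a run of letters and not a site of binding.

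Most of the gains lay near starts that were given no mark class here. This class holds 5′-most starts not classed here as carrying a germline or secondary mark, that of Gnas among them, and further annotated starts of any member. It also holds the span ends of members not classed with a mark whose start was not in the promoter table, such as Kcnk9. Whether any of these starts carries a mark was not tested. Of 117 tile values within 2 kb of such a start or span end, 96 were gains and 21 losses, while the 83 values away from starts held 36 gains and 47 losses. By table, the values of this class were 24 gains and 4 losses in line 1 and 13 and 11 in line 3 with BrafV600E, and 12 and 4 in line 1 and 47 and 2 in line 3 after long culture, so line 3 with BrafV600E was near even. The shares of gains over all listed tiles, 67.5%, 40.4%, 40.9% and 71.9% in the same order, are not limited to starts. Dio3, which encodes a deiodinase that inactivates thyroid hormone, gained within 2 kb upstream of its start in line 1 and line 3 with BrafV600E. The means were 48.6 points over 3 tiles and 46.7 points over 4 tiles in the authors' deposited tables. After long culture it gained 61.3 points on average over 7 tiles in line 3, from 44.5 to 77.0 points, and no tile was listed in line 1. The tile over the start itself was listed in line 3 after long culture alone, at 66.7 points. Its promoter is printed above, and the tile from 110279001 to 110279200 on chromosome 12, within that promoter, gained 61.1 and 20.3 points with BrafV600E and 71.6 points in line 3 after long culture, per the authors' deposited tables. No Dio3 tile was listed as a loss in any of the 4 comparisons.

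Dlk1, a membrane ligand-like protein that restrains cell differentiation, lies at the other end of the same locus. In the authors' deposited tables it gained at 3 tiles in line 1 with BrafV600E (70.3, 38.3 and 24.4 points), at 1 in line 3 (22.2 points) and at 2 in line 3 after long culture (32.3 and 21.8 points). All of these lay within 1 kb downstream of its start.

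Grb10, which encodes an adaptor that dampens insulin and growth factor receptor signalling, gained within 1 kb of its upstream start in all 4 comparisons. The tile over that start, from 12037401 to 12037600, was not listed in line 3 with BrafV600E and gained in the other comparisons. The authors' deposited tables give 4 neighbouring tiles in line 1 with BrafV600E (25.5 to 35.1 points), 1 in line 3 (24.5 points), 4 in line 1 after long culture (22.6 to 42.2 points) and 7 in line 3 after long culture (23.3 to 73.4 points). The 7 tiles lie between 12036601 and 12038000 on chromosome 11 and include the promoter printed above. A loss of -27.5 points was also listed in line 3 with BrafV600E further upstream of that start. Tiles deeper in Grb10 lost in 3 comparisons, at -72.2 points in line 3 with BrafV600E and at -39.6 and -47.2 points in lines 1 and 3 after long culture in the authors' deposited tables. Other deeper tiles, by an internal start, gained 30.1 and 43.6 points in line 3 after long culture, so the gene went both ways there.

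Zdbf2, a zinc finger gene whose imprinted expression is set early in development, held the only 2 imprinted tiles that were listed in all 4 comparisons. The tile from 63273601 to 63273800 on chromosome 1, within 1 kb of its internal start, gained 41.0 and 39.6 points with BrafV600E and 21.8 and 44.9 points after long culture (line 1 first, per the authors' deposited tables). The tile from 63248401 to 63248600 far upstream of that start, gained 20.8, 21.7, 35.8 and 60.7 points in the same order. Losses at Zdbf2 were listed with BrafV600E alone, where the authors' deposited tables give -22.7 and -60.4 points for line 1 and -71.4 points for line 3. Gpr1, its neighbour, had 1 tile, with a gain of 77.8 points in line 3 with BrafV600E in the authors' deposited tables.

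Rasgrf1, an exchange factor that activates Ras, gained at its start after long culture in both lines. In the authors' deposited tables line 1 had 3 tiles (68.2, 29.6 and 95.2 points) and line 3 had 6 (38.5 to 98.2 points), and all 3 tiles of line 1 were among those of line 3. With BrafV600E, line 1 had gains of 31.3 and 28.1 points and a loss of -52.4 points, and line 3 had no tile. Kcnk9, which encodes a potassium leak channel, gained at 1 end of its span, at 4 tiles in line 1 (33.0 to 51.3 points) and 2 in line 3 (34.5 and 43.2 points) with BrafV600E and at 10 tiles in line 3 after long culture (24.4 to 82.9 points) in the authors' deposited tables. It had no loss and no tile in line 1 after long culture.

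**Figure D2:**
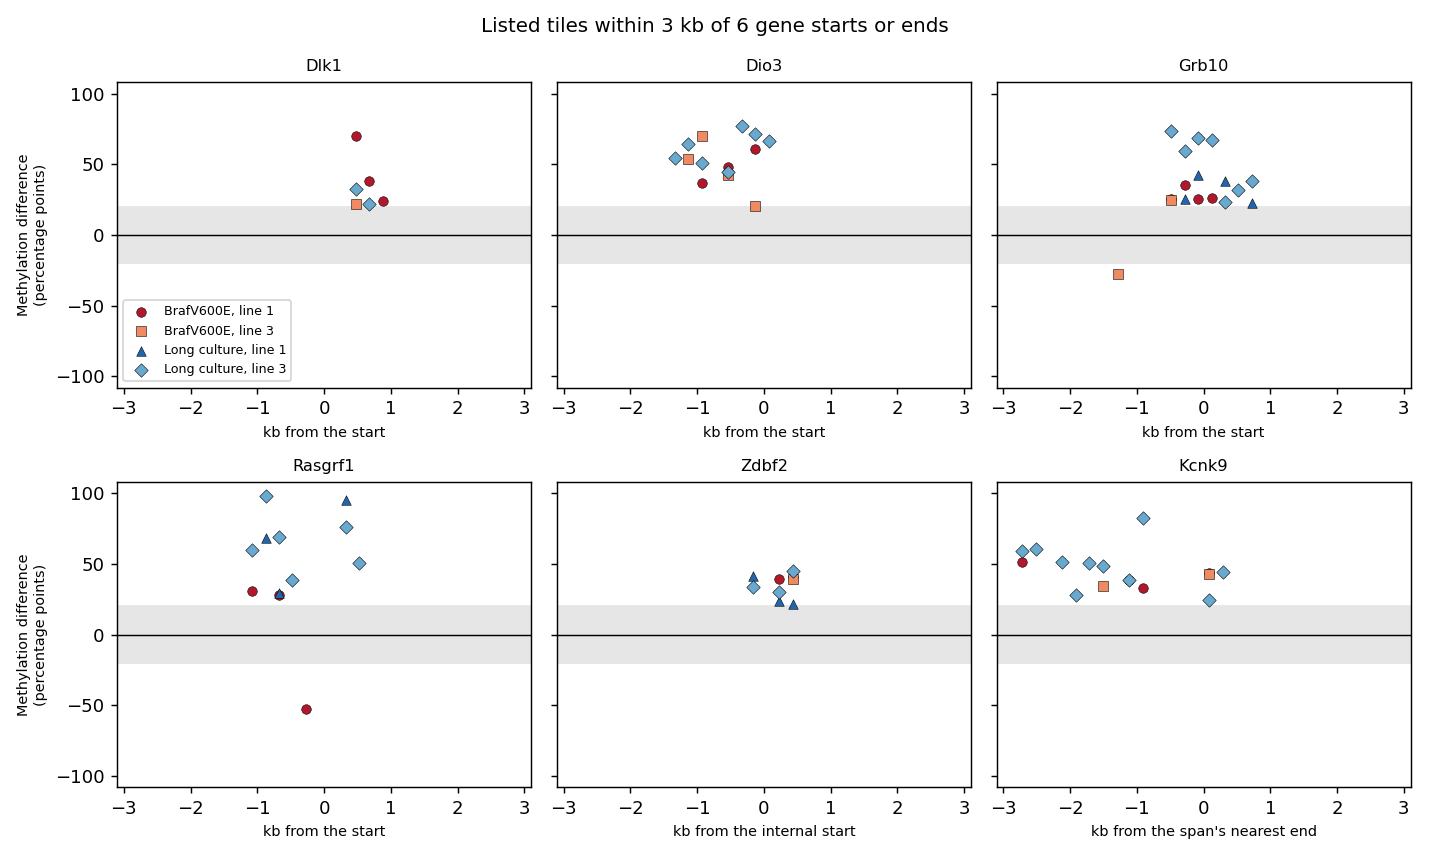
Methylation difference in percentage points of each listed tile within 3 kb, against its distance in kb from the start (Dlk1, Dio3, Grb10, Rasgrf1), the internal start (Zdbf2) or the nearest end of the span (Kcnk9, negative inside the gene); colours and shapes give the comparison and line, and the grey band marks differences under 20 points, which are not listed. Within this distance all but 2 points lie above the band, with losses of -27.5 points at Grb10 and -52.4 points at Rasgrf1 below it.

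Phlda2, a growth-restraining gene of the Kcnq1 locus, and Rtl1, a retrotransposon-derived gene of the placenta, were the members with losses alone in both lines with BrafV600E (2 of 49, 4.08%, against 1.69% of protein-coding genes). Phlda2 lost at the same tile in both lines, where the authors' deposited tables give -64.7 points for line 1 and -34.5 points for line 3, 0.224 kb downstream of its start. Rtl1 lost at 2 tiles in each line, 1 of them shared (-39.8 and -45.2 points in the authors' deposited tables). Gains alone in both lines were found for Snurf, Dlk1, Dio3, Kcnk9 and Igf2r (5 of 49, 10.2%, against 4.31%). Igf2r, the receptor that clears the growth factor IGF2, gained 37.9 and 75.2 points at a single tile inside the gene in the authors' deposited tables. After long culture Zdbf2, Mcts2 and Rasgrf1 had gains alone in both lines (3 of 49, 6.12%, against 3.03%) and Trappc9 had losses alone (1 of 49, 2.04%, against 1.16%), at different tiles in each line. Losses alone in line 1 with gains alone in line 3 were found for Peg3, Zrsr1, Commd1 and Slc38a4 (4 of 49, 8.16%, against 2.64%), and the reverse for 0 of 49, against 0.388%. Zrsr1 and Commd1 overlap and were called from the same tiles, and each of these genes had 1 tile per line. The Trappc9 tile of line 1, at -56.5 points in the authors' deposited tables, lies just outside an end of Peg13, a noncoding RNA gene that sits within Trappc9.

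The starts classed here as germline marks held 21 of the 240 imprinted values, with mostly opposite directions in the lines after long culture. Further annotated starts of a gene were given no mark class, so any germline mark at an internal promoter is not counted. Within 2 kb of the 5′-most start of the genes with such a mark, or of an end of the span for Peg10, Peg13, Nespas and Impact, whose starts were not in the table, 21 values were listed at 17 positions, 12 gains and 9 losses. After long culture all 6 values of line 3 were gains, from 21.8 to 61.6 points, and 5 of 6 values of line 1 were losses, from -23.6 to -56.5 points, in the authors' deposited tables. The gains of line 3 lay at Mcts2 (50.9 points), Nnat (42.4), Peg3 (39.6), Zrsr1 (21.8), Slc38a4 (61.6) and Nespas (61.0). The losses of line 1 lay at Snrpn (-48.0 points), Peg3 (-27.1), Plagl1 (-23.6), Zrsr1 (-33.5) and Peg13 (-56.5), per the authors' deposited tables. Mcts2, a retrogene that encodes a translation factor, was the exception of line 1, with a gain of 36.0 points at its start. Of the 11 germline-mark starts given by the table, 5 had a gain in line 3 after long culture, against 12.3% of 17492 protein-coding starts, and 0 a loss (4.04%). In line 1 after long culture 4 had a loss (4.56%) and 1 a gain (5.62%). With BrafV600E, 2 had a gain (10.0%) and 1 a loss (4.08%) in line 1, and 2 had a gain (10.9%) and 2 a loss (7.78%) in line 3.

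With BrafV600E the tiles at the starts classed as germline marks moved both ways in each line. Snrpn and Snurf, which share the start that serves as the control region of the Prader-Willi locus, gained 60.0 points in line 1 and 28.2 points in line 3, at neighbouring tiles of the authors' deposited tables. The tile of line 3, over the Snurf promoter printed above, is the one at -48.0 points in line 1 after long culture. At Zrsr1, a splicing factor retrogene inside Commd1, line 1 had 22.8 and -45.7 points and line 3 had -34.5 points in the authors' deposited tables. Peg3, a zinc finger gene expressed from the father's copy, gained 24.2 points in line 3 at the tile that stood at -27.1 points in line 1 after long culture, and Mest, a paternally expressed hydrolase gene, stood at -22.5 points in line 3 in the authors' deposited tables. A tile at the boundary of Peg10 and Sgce gained 24.3 points in line 3, and the loss at Peg10 in line 1 (-22.4 points) lay inside the gene, in the authors' deposited tables. No tile was listed at Kcnq1ot1 or Nap1l5, or within 2 kb of the Airn start.

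**Figure D3:**
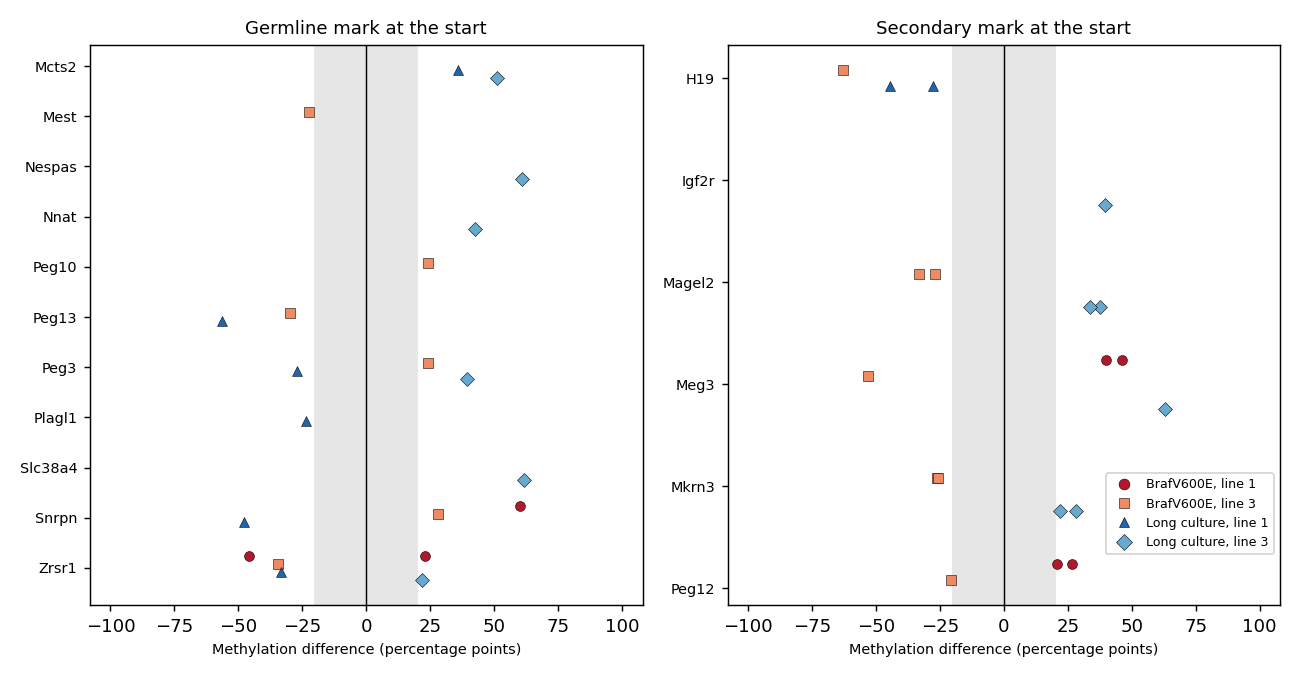
Methylation difference in percentage points of every listed tile at starts (or span ends) classed here with a germline mark, left, or a secondary mark, right, by gene. Colours and shapes give the comparison and line, and the grey band holds differences under 20 points, which are not listed. All long-culture points of line 3 lie to the right of the band, and all BrafV600E points of line 3 in the right panel lie to the left of it.

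The starts classed here as secondary marks, which for H19 means both ends of its span, also split by line and comparison. With BrafV600E, line 3 had 7 losses and 0 gains at these starts, from -20.5 to -62.8 points, and line 1 had 4 gains and 0 losses, from 20.9 to 46.2 points, in the authors' deposited tables. After long culture line 3 had 6 gains and 0 losses. By gene, without H19, 4 of 6 starts had a loss in line 3 with BrafV600E, against 7.78% of protein-coding starts. Gains were found at 2 of 6 in line 1 with BrafV600E, against 10.0%, and at 4 of 6 in line 3 after long culture, against 12.3%. The opposite direction was found at 0 of 6 in each, and line 1 after long culture had 0 of 6 either way. Magel2 and Mkrn3, intronless genes of the Prader-Willi locus, lost in line 3 with BrafV600E (-33.3 and -26.8 points, and -26.3 and -25.6 points) and gained in line 3 after long culture (37.5 and 33.7 points, and 28.3 and 22.1 points), per the authors' deposited tables. At Meg3, a noncoding RNA expressed from the mother's copy, the authors' deposited tables give gains of 40.1 and 46.2 points upstream of the start in line 1 and a loss of -53.1 points downstream of it in line 3 with BrafV600E, and a gain of 63.1 points in line 3 after long culture. The Igf2r start gained 39.5 points in line 3 after long culture. Peg12 gained 26.7 and 20.9 points in line 1 and stood at -20.5 points in line 3 with BrafV600E, at different tiles. H19, the noncoding RNA gene beside Igf2, lost at its ends, at -62.8 points in line 3 with BrafV600E and at -27.7 and -44.4 points in line 1 after long culture in the authors' deposited tables. The 5′-most Gnas start was not in this class. Tiles near that start gained 37.9 and 40.7 points in line 3 with BrafV600E. The loss there in line 3 after long culture was -35.4 points, and the other listed tiles near it gained.

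Igf2, which encodes insulin-like growth factor 2, had opposite directions in the lines with BrafV600E. Line 1 had 6 gains, from 25.0 to 74.8 points with a mean of 46.1, and line 3 had 8 losses, from -27.1 to -61.8 points with a mean of -43.2, in the authors' deposited tables. Gains alone in line 1 with losses alone in line 3 were found for 3 of 49 members (6.12%: Igf2, Meg3 and Peg12), against 2.26% of protein-coding genes, and the reverse for Peg10 alone (1 of 49, 2.04%, against 1.06%). No Igf2 tile was listed in both lines, so the opposite values come from different tiles of the gene. After long culture line 3 had 11 gains and 1 loss and line 1 had 1 gain. The tile from 142659201 to 142659400 on chromosome 7 stood at -32.8 points in line 3 with BrafV600E and at 45.5 and 51.5 points in lines 1 and 3 after long culture, per the authors' deposited tables. The loss of line 3 after long culture (-28.6 points) was at the tile that also lost with BrafV600E in that line (-42.1 points).

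**Figure D4:**
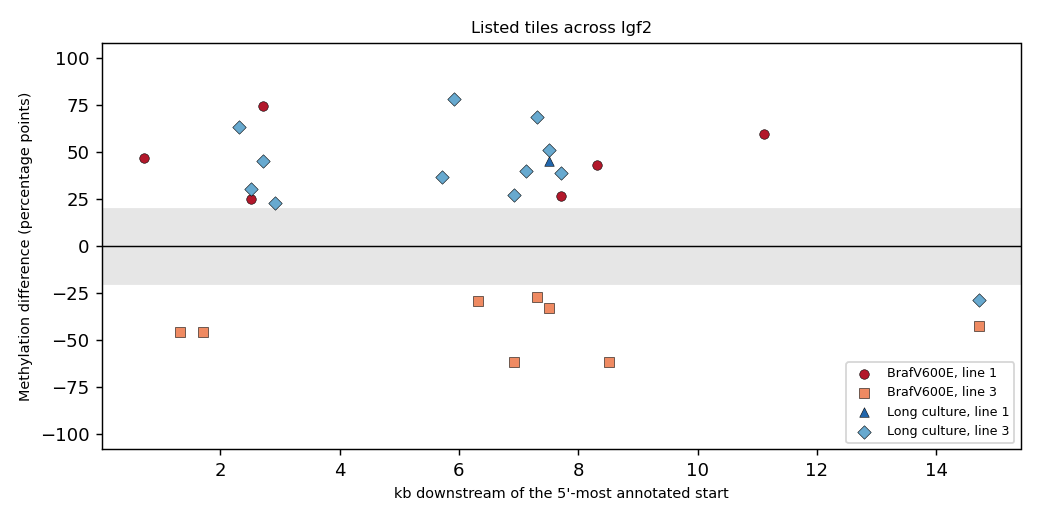
Methylation difference in percentage points of every listed tile across Igf2 against the distance in kb downstream of its 5′-most annotated start; colours and shapes give the comparison and line, and the grey band holds differences under 20 points, which are not listed. The 6 line 1 BrafV600E values lie above the band and the 8 line 3 BrafV600E values below it.

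Where the same imprinted tile was listed in both lines, the lines mostly had the same direction. With BrafV600E 14 tiles were listed in both lines (26.4% of those of line 1 and 19.7% of those of line 3, against 38.8% and 19.8% for tiles of any kind), of which 10 gained in both, 3 lost in both and 1 differed. This is 92.9% with the same direction, against 73.9% of the 5934 tiles of any kind listed in both. After long culture 13 of 16 shared tiles had the same direction (81.2%, against 68.5% of 3220), all of them gains, and the other 3 lost in line 1 and gained in line 3. Shared tiles lie close together at a few starts, so these counts rest on fewer places than tiles, and starting levels can favour a direction. The tile that differed with BrafV600E was at Gnas, which encodes the stimulatory G protein subunit, with 33.3 points in line 1 and -74.9 points in line 3 in the authors' deposited tables.

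The comparisons share no library, and their values can be set side by side within a line. In line 3, 26 imprinted tiles were listed in both comparisons (36.6% of those with BrafV600E and 30.2% of those after long culture, against 23.3% and 32.4% for tiles of any kind). Of these 11 gained in both, 3 lost in both, 11 lost with BrafV600E and gained after long culture, and 1 did the reverse. The 11 tiles that lost with BrafV600E and gained after long culture are 42.3% of the shared ones, against 34.7% of the 6964 tiles of any kind. The 11 tiles that gained in both lay at Dio3, Dlk1, Zdbf2, Kcnk9 and Grb10, and the 11 with opposite values at Igf2, Meg3, Rtl1, Gnas, Magel2, Mkrn3 and Zim1. In line 1, 8 imprinted tiles were shared, with 6 gains in both, 1 loss in both and 1 tile, at Gnas, that gained with BrafV600E and lost after long culture. The same direction was thus found for 87.5% of these 8 tiles, against 48.9% of 2384 tiles of any kind.

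**Figure D5:**
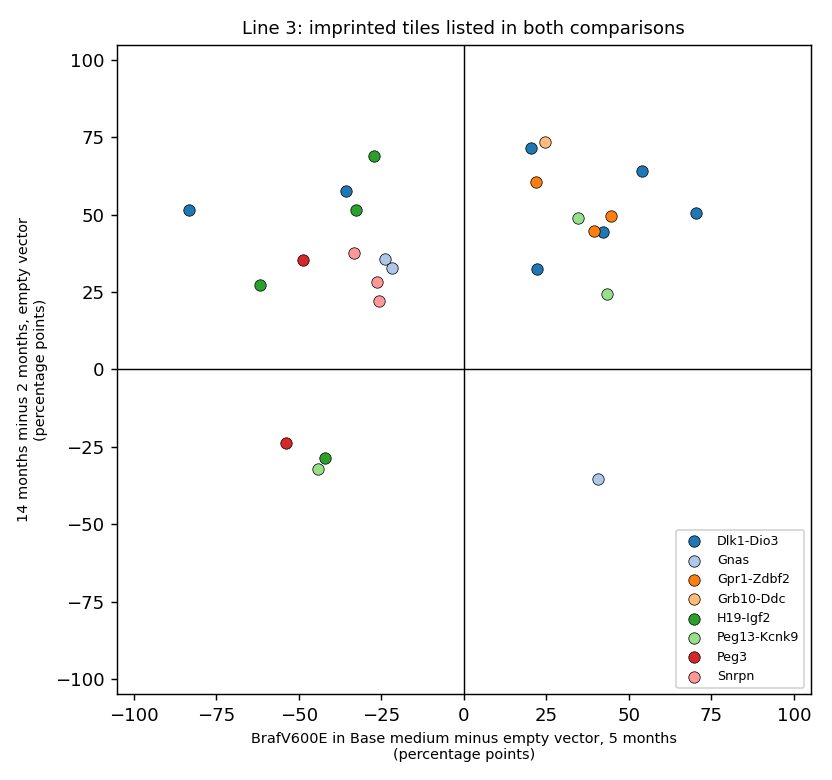
Each point is an imprinted tile of line 3 listed in both comparisons, coloured by locus; the horizontal axis gives its BrafV600E difference and the vertical axis its long-culture difference, in percentage points. The upper right holds 11 tiles of 4 loci and the upper left 11 tiles of 5 loci.

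Gnas is a locus of several promoters used by different parental copies, and its tiles went both ways in every within-line comparison. In the authors' deposited tables line 3 after long culture had 9 gains and 1 loss (-35.4 points), and line 1 had 5 losses and 1 gain (36.2 points). With BrafV600E line 3 had 6 losses, down to -81.8 points, and 3 gains, and line 1 had 3 gains and 2 losses. Near the 5′-most start 2 tiles stood at -35.0 and -52.2 points in line 1 and at 29.1 and 40.3 points in line 3 after long culture. Loss in line 1 with gain in line 3 was common after long culture. It was found for 28.2% of the 3220 tiles of any kind listed in both lines, against 18.75% of the 16 imprinted ones.

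A tile methylated on a single parental copy in every cell starts near 50% and can move by at most 50 points. Of the 240 imprinted values, 78 were larger, 48 gains and 30 losses, and 3 losses in Ddc, Kcnq1 and Slc38a4 stood at -100 points in the authors' deposited tables. At starts classed as germline marks 5 of 21 values passed 50 points, and at those classed as secondary marks 3 of 19. Per table, the imprinted values past 50 points were 26.4% and 31.0% with BrafV600E and 20% and 41.9% after long culture in lines 1 and 3, against 37.4%, 42.0%, 38.1% and 39.9% of all listed tiles. The counting error of each value is unknown, and the q-values test against 0 and not against 50 points, so the starting level of these tiles was not tested.

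Away from starts, line 3 with BrafV600E had 27 losses and 7 gains, while line 3 after long culture had 7 losses and 18 gains, near the 71.9% gains of all tiles in that comparison. Line 1 had 9 losses and 9 gains with BrafV600E and 4 losses and 2 gains after long culture. In the authors' deposited tables the losses of line 3 with BrafV600E included Snrpn far upstream of the shared start (-83.3, -75.0 and -90.1 points), Zim1, a zinc finger gene of the Peg3 locus (-85.2 and -54.7 points), Meg3 (-83.3 points) and Usp29, a ubiquitin protease gene (-54.0, -42.3 and -33.7 points). Usp29 lost at 2 other tiles in line 1 (-39.0 and -54.9 points in the authors' deposited tables). Ddc, which encodes a decarboxylase of dopamine and serotonin synthesis, lost at a shared tile in both lines with BrafV600E (-58.8 and -48.5 points) and gained 87.5 points at another tile in line 3, in the authors' deposited tables. Slc38a4, an amino acid transporter gene, gained at a shared tile in both lines with BrafV600E (64.9 and 35.0 points in the authors' deposited tables), by an internal start. Inpp5f, a phosphatase gene, had 1 tile in line 1 with each comparison, at 32.9 points with BrafV600E and -66.8 points after long culture, at neighbouring tiles of the authors' deposited tables. These Inpp5f tiles lay 76.9 and 76.7 kb downstream of the start used, and whether an imprint mark lies there was not classed. Impact, a regulator of translation, had 1 tile, at 47.1 points in line 3 after long culture in the authors' deposited tables.

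Of 12 genes whose products maintain or lay down imprints, 7 had a tile in either line with BrafV600E and 5 after long culture, against 38.3% and 31.3% of protein-coding genes, and 0 had one in both lines of a comparison, against 18.0% and 12.3%. Dnmt1, the maintenance methyltransferase gene, had 2 losses in line 1 with BrafV600E with a mean of -77.0 points, and Zfp57 had 1 gain of 23.8 points in line 3 with BrafV600E, in the authors' deposited tables. A further list held 24 other imprinted genes, which lie beside these loci except for Sfmbt2 and Dcn. Of these, 9 were listed in both lines with BrafV600E and 6 after long culture, against the same 18.0% and 12.3%. Klf14, an intronless Krüppel-like factor gene near Mest, had gains alone in all 4 comparisons, where the authors' deposited tables give means of 30.3 and 36.0 points with BrafV600E and 20.5 and 36.7 points after long culture, line 1 first. Asb4 had gains alone in both lines with BrafV600E (44.5 and 28.4 points on average in the authors' deposited tables).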

How the data were processed

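RRBS reads were single-end and 50 bp long (labels' protocols). The submitters' processing notes name Bismark 0.14.3, methylKit 1.7.4, Trim Galore 0.4.4, FastQC 0.11.7 and GRCm38 (mm10); settings and coverage minimum: not given in the sources used here. Per the file headers, the authors deposited 8 tables of 200 bp tiles with the p-value and the q-value of each tile and its methylation difference in percentage points, positive in the tables of gains and negative in the tables of losses. The differences were used as deposited. Read depth is unknown.

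Gene spans came from a RefSeq table of GRCm38.p6 (49 of 50 members matched, Nespas through its synonym Gnasas1) and starts from a RefSeq promoter table (39 members). The 5′-most start was used, and for Snrpn the start it shares with Snurf. Tiles were joined to spans widened by 2 kb with pandas 2.3.3 in Python 3.11.15, and intervals came from scipy 1.17.1; the join was tested on simulated data. No test across samples was made, since the tables list called tiles alone and hold no value per library, and results are counts and values beside the same over all protein-coding genes or all tiles.

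The members, loci, mark classes and gene lists were chosen with earlier results of these data known. Members were described if listed in both lines of a comparison, if a tile lay at a start with an imprint mark, or if they held the largest difference of their locus. Alternatives were stricter limits, other windows, merged tiles, each line alone and, added after seeing the data, leaving out H19-Igf2.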

Additional observations from a re-analysis of the deposited data

Results flagged for a closer look

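At 5 loci every listed tile of line 1 went 1 way and every listed tile of line 3 the other way under the same comparison. The difference between lines was not tested, since each line has 1 library per group. With BrafV600E, the 6 tiles of H19-Igf2 in line 1 averaged 46.1 points and the 9 in line 3 averaged -45.3 points, and Peg10-Sgce had -22.4 and 24.3 points at 1 tile each. After long culture Slc38a4 stood at -100 points in line 1 and 61.6 points in line 3, Zrsr1-Commd1 at -33.5 and 21.8 points, each on 1 tile, and Snrpn at -48.0 points on 1 tile in line 1 and at 30.4 points on average of 4 in line 3. In all 5 cases the tiles of the lines were at different positions.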

How the results depend on the processing

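Of 68 recomputed values, 52 kept within 1.5 times the count, or within the interval of the share, and 16 did not. With an absolute difference of at least 40 points, BrafV600E gains went from 62 to 25 tiles and losses from 62 to 34, long-culture gains from 92 to 51 and losses from 24 to 11, loci listed in both lines after long culture from 11 to 7, and loci with a single shared direction with BrafV600E from 2 to 1. With a q-value of at most 0.001, losses went to 40 with BrafV600E and 15 after long culture. With tiles within 500 bp merged, long-culture gains went to 41 regions. With 10 kb on either side of the span, loci with a single shared direction after long culture went from 2 to 1. Each line alone gave 23 to 39 gains and 14 to 48 losses with BrafV600E, and 15 to 77 gains and 9 to 15 losses after long culture; fewer tiles remain by construction, and line 3 holds most of the long-culture gains. The share of gains in each line stayed within its interval under all 5 settings run. Leaving out H19-Igf2 kept the 4 tile counts within 1.5 times. No paired analysis was possible because the tables are already within-line differences of 1 library against 1, with no value per library. Depth is unknown, so unlisted tiles cannot be read as unchanged.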

Other observations

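The control regions of H19-Igf2 and Dlk1-Dio3 lie between genes, partly outside the windows used. Between Dlk1 and Meg3 a tile 29.0 kb before Meg3 was listed in 3 of 4 comparisons of the authors' deposited tables, at -24.1 and -43.4 points with BrafV600E in lines 1 and 3 and at 33.9 points in line 3 after long culture. Another tile, 15.2 kb before Meg3, gained 26.5 points in line 3 with BrafV600E, and with BrafV600E losses of -56 points in line 1 and -53.5 points in line 3 were listed at 1 tile each in the authors' deposited tables. Between H19 and Igf2, 2 neighbouring tiles, 20.0 and 19.8 kb from Igf2, stood at -95.2 and -51.0 points respectively in line 3 with BrafV600E in the authors' deposited tables. They lay 52.5 and 52.7 kb from H19. Whether any tile between these genes, or between Dlk1 and Meg3, lies in a control region was not tested. These intervals were chosen after the values of the members were seen.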
